A study of Homo sapiens with 2 samples.

Results

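Of the 8589 ING5 peaks on chromosomes 1 to 22 and X, 718 (8.36%, exact 95% interval 7.78 to 8.97) lay at bidirectional promoters of protein-coding genes. They were picked by position alone: the summit, the base of highest fragment coverage in a peak, lay within 1000 bp of a transcription start site (TSS) of a divergent pair. A divergent pair was 2 protein-coding genes read outward from each other, the minus-strand gene on the left and the plus-strand gene on the right, with canonical TSSs (1 per gene, as Ensembl marks them) at most 1000 bp apart. The annotation held 973 such pairs with 1875 genes, and since some genes had more than 1 partner, the pairs formed 903 separate loci.

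The study profiled DNA bound by ING5 in untreated HepG2 cells, an established human liver cancer line, with 1 ChIP-seq library made with a commercial ING5 antibody and 1 input DNA library made without antibody, which served as the control for the peaks. The ChIP library held 12416160 fragments and the input 9915170. The header of the peak list names the ChIP library by a code that no label uses, so its match to ING5 rests on the sample it was deposited under. With 1 library in each group no value had a replicate error and no difference between conditions was tested. Shares are given with exact (Clopper-Pearson) 95% intervals, which cover counting error only, and genes, pairs and peaks are not replicates. None of 14 liver marker genes, among them ALB and HNF4A, had a summit within 1000 bp of its TSS (upper limit 23.2%), so these peaks gave no check of the labelled cell type. The labels name GRCh37, but 5558 summits (64.7%) lay within 1000 bp of a canonical protein-coding TSS at its GRCh38 position and 560 (6.52%) at its GRCh37 position, so all positions are read as GRCh38.

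In a bidirectional promoter the stretch between the start sites serves genes on both strands, and such promoters are usually rich in CpG and depleted of nucleosomes between the starts, with positioned nucleosomes beginning inside each gene. They are common among housekeeping genes, for example those of DNA repair and of mitochondria, and histone genes of one cluster are often paired this way. ING5 is a member of the inhibitor of growth family. Its plant homeodomain finger binds histone H3 methylated at lysine 4, a mark of nucleosomes at active starts, and ING5 is a subunit of histone acetyltransferase complexes built on MYST enzymes.

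The stretches between the starts of 9 pairs are shown because the results turn on them: summits lay beside them, hardly ever in them. They run from the base after the minus-strand TSS to the base before the plus-strand TSS and are written along the plus strand, from RefSeq promoter windows of GRCh38.p14. Capitals mark matches on either strand to any of 9 short motifs. The core of the sites bound by ETS factors was searched as CCGGAA. Part of the site of the respiratory gene regulator NRF1 was searched as GCATGCGC. The box bound by the trimeric factor NF-Y was searched as CCAAT. For the GC box of SP factors the letters were GGGCGG. For the TATA box of core promoters the letters were TATAAA. Sites of the zinc finger factor YY1 were searched as AAGATGGCG, and those of the methyl-CpG reader ZBTB33 were searched as TCTCGCGA. The palindrome bound by CREB factors was searched as TGACGTCA, and the E-box of basic helix-loop-helix factors was searched as CACGTG.
RAD1/BRIX1, chr5:34915505-34915710, 206 bases, summits on both sides: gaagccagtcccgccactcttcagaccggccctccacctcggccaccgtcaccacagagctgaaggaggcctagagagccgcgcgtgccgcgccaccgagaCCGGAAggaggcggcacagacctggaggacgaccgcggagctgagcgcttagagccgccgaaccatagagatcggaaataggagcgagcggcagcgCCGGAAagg
TAX1BP3/EMC6, chr17:3668579-3668811, 233 bases, summit on the EMC6 side: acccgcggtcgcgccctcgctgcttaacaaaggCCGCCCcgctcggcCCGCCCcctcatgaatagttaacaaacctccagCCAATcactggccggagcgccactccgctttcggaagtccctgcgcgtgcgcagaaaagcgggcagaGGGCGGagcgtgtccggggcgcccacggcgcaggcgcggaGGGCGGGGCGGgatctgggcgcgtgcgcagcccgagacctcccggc
TDP2/ACOT13, chr6:24666900-24667076, 177 bases, summits on both sides: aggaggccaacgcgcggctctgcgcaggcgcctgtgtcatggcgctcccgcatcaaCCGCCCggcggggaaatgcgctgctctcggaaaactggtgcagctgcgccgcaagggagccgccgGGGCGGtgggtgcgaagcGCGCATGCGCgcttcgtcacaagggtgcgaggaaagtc
BRD9/TRIP13, chr5:892802-892883, 82 bases, summits on both sides: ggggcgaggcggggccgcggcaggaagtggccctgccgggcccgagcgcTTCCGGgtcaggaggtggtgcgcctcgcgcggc
STX10/IER2, chr19:13150376-13150410, 35 bases, summits on both sides: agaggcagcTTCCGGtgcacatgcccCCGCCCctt
KIF9/KLHL18, chr3:47282800-47282943, 144 bases, summit between the starts: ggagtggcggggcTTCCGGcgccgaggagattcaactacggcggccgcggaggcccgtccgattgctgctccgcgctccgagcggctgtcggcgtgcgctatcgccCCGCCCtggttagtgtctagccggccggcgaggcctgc
H2AC15/H2BC15, chr6:27838376-27838568, 193 bases, summits on both sides: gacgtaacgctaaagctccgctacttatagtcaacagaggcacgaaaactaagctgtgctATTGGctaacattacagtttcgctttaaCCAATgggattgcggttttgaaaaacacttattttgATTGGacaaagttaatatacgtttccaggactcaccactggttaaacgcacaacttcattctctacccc
VPS52/RPS18, chr6:33271877-33272074, 198 bases, no peak: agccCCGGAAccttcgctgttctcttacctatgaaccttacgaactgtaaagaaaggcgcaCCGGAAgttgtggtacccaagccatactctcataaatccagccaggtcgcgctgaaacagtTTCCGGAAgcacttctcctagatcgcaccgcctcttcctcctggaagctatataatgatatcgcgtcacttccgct
HELQ/MRPS18C, chr4:83455824-83456057, 234 bases, no peak: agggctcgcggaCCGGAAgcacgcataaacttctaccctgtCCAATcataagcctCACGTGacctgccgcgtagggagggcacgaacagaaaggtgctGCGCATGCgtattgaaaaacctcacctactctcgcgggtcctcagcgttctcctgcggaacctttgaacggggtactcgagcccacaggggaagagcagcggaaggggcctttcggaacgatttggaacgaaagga

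The stretch between RAD1 and BRIX1 held 2 matches to the ETS core, and that of the ribosomal pair VPS52/RPS18, which had no peak, held 4, some of them on both strands of 1 site. Some of the 5 GC box matches of TAX1BP3/EMC6 shared bases, so they are not all separate. The NRF1 matches of TDP2/ACOT13 overlapped on both strands of 1 site. The histone pair H2AC15/H2BC15 held 3 CCAAT matches and only 8 CG dinucleotides in 193 bases, against 23 in 206 bases at RAD1/BRIX1. The pairs shown are only some of the named pairs, so their matches do not stand for all pairs. CCDC127/SDHA, with a peak, and AKAP3/NDUFA9, without one, held no match and are not shown. A match describes the letters and does not show that a factor binds there.

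ING5 summits at bidirectional promoters lay inside the genes and not between them. Of the 718 summits, 372 (51.8%, 48.1 to 55.5) lay downstream of the minus-strand TSS, 333 (46.4%, 42.7 to 50.1) downstream of the plus-strand TSS, and 13 (1.81%, 0.968 to 3.08) between the starts. Placement inside the gene was not particular to pairs. At TSSs with no other canonical protein-coding TSS within 1000 bp, 3936 of 4638 summits (84.9%, 83.8 to 85.9) also lay downstream. The upstream window there was 1000 bp, longer than most stretches between paired starts. Over the 536 loci with a peak, the stretches between the starts added up to 159949 bp and held 12 summits, 0.750 per 10 kb. Stretches of the same length just outward of both starts at these loci held 261 summits, 8.16 per 10 kb. The order of strands carried no such contrast: of the 705 summits outside the stretch, 47.2% (43.5 to 51.0) were on the plus-strand side, an interval that holds equal shares.

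**Figure D1:**
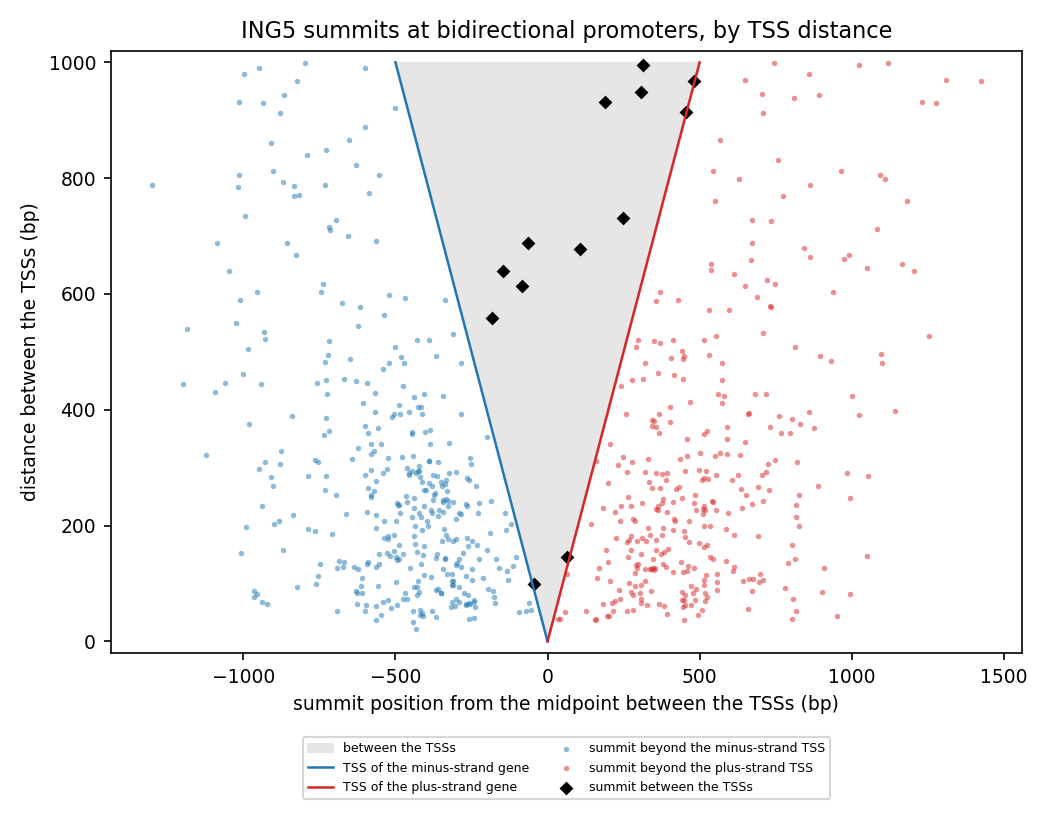
Each point is 1 of 718 ING5 summits, placed by its distance in bp from the midpoint between both TSSs of its pair (x axis) and by the distance in bp between the TSSs (y axis). The lines are the TSSs, blue for the minus-strand and red for the plus-strand gene. The grey wedge between them holds 13 summits, drawn as black diamonds, and 11 of these lie at pairs whose TSSs are 500 bp or more apart.

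The summits outside sat close behind the start, inside the gene. Their median distance from the nearer TSS was 343 bp (quartiles 224 and 486, 95% interval of the median 317 to 368, n = 705), and it was 337 bp on the minus-strand side and 351 bp on the plus-strand side. At single promoters, canonical protein-coding TSSs with no other such TSS within 1000 bp, 3936 downstream summits had a median distance of 416 bp (quartiles 258 and 607, interval 406 to 423). Summits at pairs were thus nearer to the start, and the intervals of the medians did not overlap. The fullest bin at pairs ran from 200 to 300 bp with 169 summits, 9.01 per 100 TSSs, against 3.64 per 100 TSSs at single promoters in that bin. From 900 to 1000 bp the values were 0.853 and 1.00 per 100 TSSs.

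**Figure D2:**
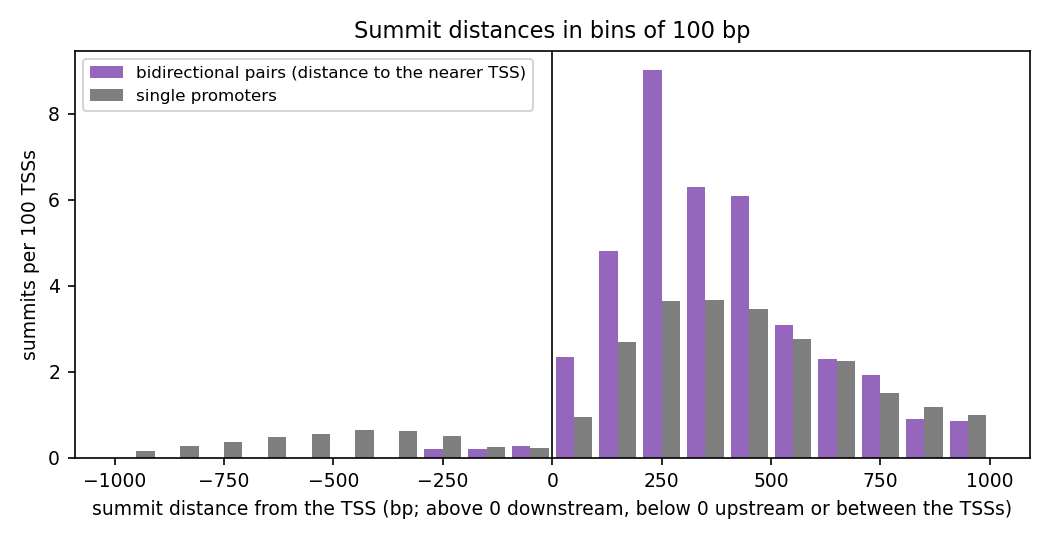
Summits per 100 TSSs (y axis) in bins of 100 bp by distance from the TSS (x axis, downstream above 0) at bidirectional pairs (purple, distance to the nearer TSS, so that below 0 means between the starts) and at single promoters (grey, below 0 means upstream). Pairs reach 9.01 in the bin from 200 to 300 bp and single promoters reach 3.67 from 300 to 400 bp. Below 0 the colours cannot be compared, since a summit between the starts is at most 500 bp from the nearer TSS by the rule.

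Seen on the canonical transcripts, 431 of the 705 summits (61.1%, 57.4 to 64.7) lay in the first intron, 207 (29.4%) in the first exon, 34 in a later exon, 28 in a later intron and 5 beyond a short gene. The first intron held 65.1% and the first exon 27.2% of downstream summits at single promoters. The intervals of these shares overlapped between pairs and single promoters. Peaks rarely reached the starts themselves: of 576 pairs with a peak, 454 (78.8%) had neither TSS inside a peak, 78 had 1 and 44 had both. At single promoters with a summit, the peak covered the TSS in 13.3% (12.2 to 14.3), and the share of all TSSs at pairs with a peak was 14.4% (12.4 to 16.6).

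A peak that spanned both starts was an exception, found for 33 of 718 peaks (4.596%), and 18 of the 33 were at pairs with TSSs less than 100 bp apart. The widest of these peaks covered 1970 bp at LMBRD2/SKP2 on chromosome 5, with its summit 109 bp inside SKP2, an F-box gene of the cell cycle. It was followed by 1480 bp at FASTKD3/MTRR, with the summit 500 bp inside the methionine synthase reductase gene MTRR. The third covered 1339 bp at MED22/RPL7A, 297 bp inside the ribosomal protein gene RPL7A. The local background, the fragments the peak caller expected there, was 2.46 at the first of these peaks and 2.17 at the second, and at MED22/RPL7A it was 0.853, the lowest value in the list.

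The 13 summits between the starts had 3.996-fold to 8.63-fold enrichment, and 11 of them were at pairs 500 bp or more apart. Fold enrichment is the peak caller's ratio of the pileup, the fragments over the summit, to the local background, with 1 added to both. It is the authors' value for a single peak of this list. The most significant was at KIF9/KLHL18, a kinesin gene and an adaptor gene of ubiquitin ligation, with 145 bp between the starts. Its peak ran from 47282743 to 47283153 on chromosome 3 over both starts, with the summit 9 bp from the TSS of KLHL18, 15 fragments and 8.63-fold enrichment. At MCM3AP/YBEY the summit lay 119 bp from the TSS of YBEY with 8.09-fold enrichment, and at ZBTB25/ZBTB1, 2 zinc finger genes 932 bp apart, it lay 277 bp from the nearer TSS with 7.01-fold. SMIM7/TMEM38A followed with 7.01-fold and TSSK6/NDUFA13 with 6.48-fold.

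A peak was found at 576 of 973 pairs (59.2%, 56.0 to 62.3), and at 536 of 903 loci (59.4%, 56.1 to 62.6). Among all 19819 canonical protein-coding TSSs 27.9% had a summit within 1000 bp, and among the 17031 single promoters 24.2% (23.5 to 24.8). A pair has 2 starts and a longer window, so the comparison was also made for each TSS with summits 0 to 1000 bp downstream on its own strand. That share was 37.7% (706 of 1875, 35.5 to 39.9) at TSSs of pairs and 22.3% (3797 of 17031, 21.7 to 22.9) at single promoters, against 24.3% of all canonical TSSs. Each TSS of a pair thus had a downstream summit 1.69 times as often as a single promoter, and the intervals lay apart. Among the 1000 most significant peaks they overlapped, with 3.95% (3.11 to 4.93) of pair TSSs and 3.38% (3.12 to 3.66) of single promoters.

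Single promoters were then divided by whether a long noncoding RNA (lncRNA) began on the opposite strand within 1000 bp upstream. With such a partner, 674 of 1759 TSSs (38.3%, 36.04 to 40.6) had a downstream summit, a share whose interval overlapped that of the pairs. Without one it was 3123 of 15272 (20.4%, 19.8 to 21.1). The upstream side told the 3 kinds of promoter apart. A summit 1 to 1000 bp upstream was found at 33.4% (31.3 to 35.6) of TSSs with a protein-coding partner, 12.6% (11.05 to 14.2) with an lncRNA partner and 3.14% (2.87 to 3.43) with neither, against 7.07% of all canonical TSSs. At pairs the upstream side holds the body of the partner gene, so the same peak can count as downstream for 1 gene and upstream for the other.

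The base composition of the promoters moved with these shares. CpG observed over expected, the number of CG dinucleotides relative to that expected from the C and G content, was taken in the window from 250 bp before to 50 bp after each TSS, and all promoters were divided into 4 classes of equal size, with edges at 0.424, 0.777 and 0.921. Of TSSs at pairs 41.0% were in the highest class and 2.24% in the lowest, and of single promoters 23.2% and 28.0%. In the highest class a downstream summit was found at 45.1% (41.6 to 48.7) of pair TSSs, 43.6% (39.9 to 47.3) of TSSs with an lncRNA partner and 40.1% (38.4 to 41.8) with neither, with overlapping intervals. In the second class the values were 29.5% (25.2 to 34.0), 28.5% (23.9 to 33.4) and 18.2% (16.96 to 19.4), so the gap between partnered and lone promoters was wider at moderate CpG. In the third they were 36.3% (32.6 to 40.2), 42.4% (38.4 to 46.4) and 30.3% (28.8 to 31.9), with the lncRNA class highest and the lone interval apart from both others. In the lowest class they were 4.76% (0.582 to 16.2) of 42 TSSs, 6.17% (2.03 to 13.8) of 81 and 1.47% (1.15 to 1.86) of 4689. The part of CpG in the difference between pairs and single promoters was not tested beyond these classes.

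**Figure D3:**
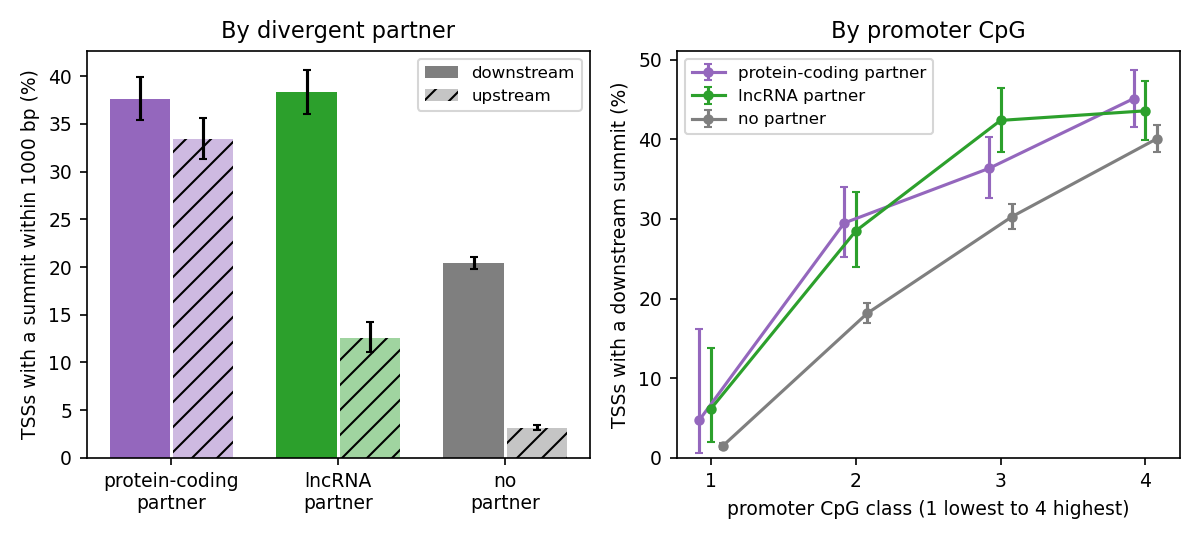
Left, share of TSSs (%, y axis) with a summit within 1000 bp downstream (solid) or upstream (hatched) for TSSs with a protein-coding, an lncRNA or no divergent partner. Right, share with a downstream summit (%) by promoter CpG class. Bars and points are shares with exact 95% intervals; the upstream share falls from 33.4% to 12.6% to 3.14%, while the downstream shares of the partnered kinds run close together.

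The upstream difference was also present within the highest CpG class, where 40.1% (36.6 to 43.6) of pair TSSs, 16.2% (13.6 to 19.1) of TSSs with an lncRNA partner and 6.84% (5.995 to 7.76) of the others had an upstream summit. Upstream summits at promoters with an lncRNA partner lay at a median of 501.5 bp (interval 463 to 534, n = 222) from the protein-coding TSS. At promoters with neither partner the median was 461 bp (428 to 479, n = 480), with overlapping intervals. Pairs with a peak had a median CpG observed over expected of 0.909 over their genes (0.894 to 0.923, n = 576) and pairs without one 0.848 (0.836 to 0.865, n = 397).

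The distance between the starts made little difference to whether a pair was bound. With TSSs under 100 bp apart 107 of 185 pairs had a peak (57.8%, 50.4 to 65.0), and the share was 59.0%, 60.2%, 59.4% and 59.6% for the next classes, which began at 100, 200, 300 and 500 bp. The median distance between starts was 239 bp at pairs with a peak and 232 bp at the others. Nor did the share of bound pairs with summits on both sides follow the distance: it ran from 25.2% (17.3 to 34.6) to 30.6% (22.5 to 39.6) over the 5 classes. With intervals this wide a small trend would not be detectable.

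**Figure D4:**
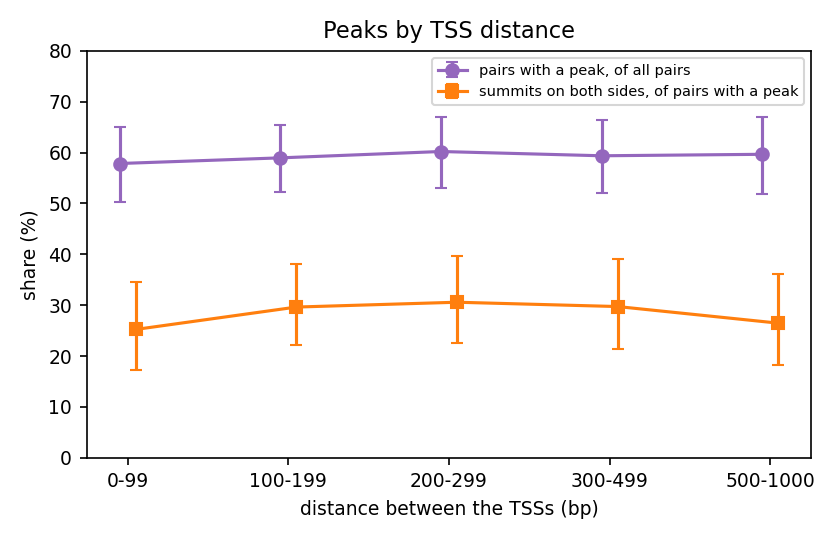
Share of all pairs with a peak (purple) and share of those pairs with summits on both sides (orange), in percent with exact 95% intervals, in 5 classes of distance between the TSSs (x axis, bp). Both lines are level, the first between 57.8% and 60.2% and the second between 25.2% and 30.6%.

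Most bound pairs had a summit on 1 side only. Of the 576, 404 (70.1%, 66.2 to 73.8) had summits on 1 side, 164 (28.5%, 24.8 to 32.4) on both sides, and 8 only between the starts. A lone summit was found at 396 pairs, 2 summits at 165 and 3 or more at 15. Of the 404 pairs with 1 side, 184 (45.5%, 40.6 to 50.5) had it on the plus-strand side. The minus-strand side was bound at 39.5% of all pairs (36.4 to 42.6) and the plus-strand side at 35.8% (32.8 to 38.9), with overlapping intervals.

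The sides of a pair were bound together somewhat more often than their shares alone give. The plus-strand side had a summit at 42.7% (37.7 to 47.8) of the 384 pairs with the minus-strand side bound and at 31.2% (27.5 to 35.2) of the 589 without. Multiplying the shares of both sides gives 137 pairs with both, and 164 were found. Where both genes were in the highest CpG class the values were 47.9% (39.4 to 56.5) and 37.1% (29.1 to 45.7), with overlapping intervals. At single promoters without an lncRNA partner the upstream and downstream sides were linked too, with an upstream summit at 8.20% of TSSs that had a downstream one and 1.84% of those that had none. From the lowest to the highest CpG class, the downstream share at these promoters rose from 1.47% to 40.1% and the upstream share from 0.448% to 6.84%. The link was not measured within CpG classes.

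Where both sides had a summit, these stood about a kilobase apart, and neither strand was the stronger on average. The median distance between the stronger summits of both sides was 975.5 bp (941 to 1068, n = 164). The median ratio of plus-strand to minus-strand fold enrichment was 1.00 (0.943 to 1.08), which does not measure how unequal the sides were. The median ratio of the stronger to the weaker side was 1.247 (1.198 to 1.296). In 124 of 164 pairs (75.6%) the sides were within 1.5-fold of each other. All peaks at these pairs lay in a narrow range (quartiles 5.935 and 8.408), and the share for sides of different pairs was not tested. The strength of 1 side said little about the other. Pearson's r of the log10 enrichments was 0.107 and Spearman's rho 0.127 over 164 pairs, which share 1 library and a common lower limit. The pair farthest from equal with the stronger minus-strand side was TDP2/ACOT13, with 13.25-fold against 6.19-fold, and with the stronger plus-strand side GLYR1/UBN1, with 4.17-fold against 12.15-fold.

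**Figure D5:**
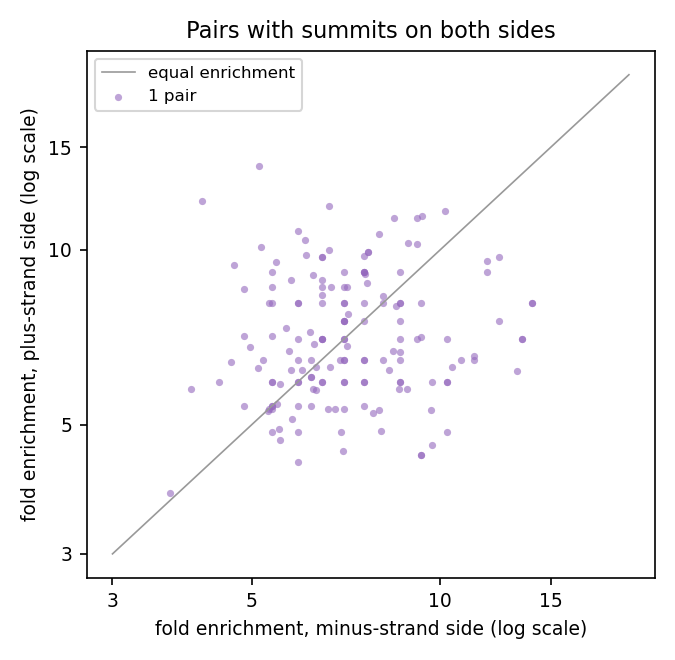
Fold enrichment of the most significant peak on the minus-strand side (x axis) and on the plus-strand side (y axis), both on log scales, for the 164 pairs with summits on both sides; the line marks equal enrichment. The points scatter around the line without following it (Spearman's rho 0.127), and 124 lie within 1.5-fold of it.

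First exon length, gene length and promoter CpG each separated the bound side from the other side poorly in the 404 pairs with summits on 1 side. Other properties of the genes were not compared between the sides. The bound side had the longer first exon in 226 of 403 pairs (56.1%, 51.1 to 61.0), with medians of 177 and 144.5 bp. It was the longer gene in 180 of 404 (44.6%, 39.6 to 49.6) and had the higher promoter CpG in 221 of 404 (54.7%, 49.7 to 59.6). The first 2 intervals leave out an even share by less than 2 percentage points.

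Peaks at pairs were of ordinary strength for this list. Their median fold enrichment was 6.501 (quartiles 5.66 and 8.09, range 3.71 to 21.04), with a median pileup of 12 fragments (7 to 48) and a median width of 369.5 bp. Peaks at single promoters had a median of 6.95 (interval 6.70 to 7.01), and the interval of the pairs, 6.48 to 6.78, overlapped it. Peaks at pairs made up 72 of the 1000 most significant (7.20%) and 2 of the 100 most significant. A local background above the lowest value was found under 43.5% (39.8 to 47.2) of peaks at pairs and 38.6% (37.2 to 40.1) of those at single promoters.

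The strongest peak at a bidirectional promoter belonged to the splicing factor gene SRSF2. At SRSF2/MFSD11 on chromosome 17, with TSSs at 76737331 and 76738119, the peak with its summit 336 bp inside SRSF2 held 38 fragments and reached 21.04-fold. Another summit lay 906 bp inside SRSF2 with 21 fragments and 11.9-fold. The transporter-like gene MFSD11 had none on its side. PRDX2/THSD8 on chromosome 19 reached 15.65-fold, 214 bp inside the peroxiredoxin gene PRDX2.

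Next by significance with the lowest background were TAX1BP3/EMC6, HSPD1/HSPE1 and FBXW5/C8G, with 25 fragments and 14.03-fold each. At TAX1BP3/EMC6 the summit lay 399 bp inside EMC6, which encodes a subunit of an endoplasmic reticulum membrane complex, beyond the sequence shown for this pair. HSPD1 and HSPE1 encode the subunits of the mitochondrial chaperonin and start 539 bp apart on chromosome 2. The HSPD1 side held 25 fragments at 917 bp, and the HSPE1 side 14 fragments and 8.09-fold at 278 bp. FBXW5, an F-box gene, carried its summit 732 bp inside, and the complement gene C8G had none. TDP2/ACOT13, with 25 fragments and 13.25-fold 448 bp inside the DNA repair gene TDP2, and LRRC41/UQCRH, with 24 fragments and 13.5-fold 915 bp inside LRRC41, completed the group outside chromosome 5.

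Among the 12 pairs with the most significant peaks, 4 lay on the short arm of chromosome 5, and all 4 stood over a raised local background. At RAD1/BRIX1, a DNA damage checkpoint gene and a ribosome assembly gene, the BRIX1 side held 48 fragments 134 bp from its TSS and the RAD1 side 20 fragments at 780 bp, 13.9-fold and 5.13-fold over backgrounds of 2.52 and 3.09 fragments. FASTKD3/MTRR had 39 fragments and 12.6-fold over 2.17. CCDC127/SDHA had 40 fragments and 9.93-fold over 3.13 on the side of SDHA, a subunit gene of complex II. LMBRD2/SKP2 had 35 fragments and 10.4-fold over 2.46. The part of the raised background in these peaks was not tested. Without chromosome 5 the share of bound pairs was 59.2% and the share with both sides 28.0%.

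Pairs with strong summits on both sides included BRD9/TRIP13, a bromodomain gene and a gene of the spindle checkpoint, also on chromosome 5. Its starts lay 83 bp apart, and 24 fragments (10.2-fold) stood 567 bp inside BRD9 and 26 (11.65-fold) 436 bp inside TRIP13. UCHL5/RO60, a deubiquitinase gene and an RNA-binding protein gene, had 9.35-fold and 11.4-fold, and CEP76/PSMG2, a centriole gene and a proteasome assembly gene, had 12.4-fold and 9.71-fold. TMEM60/PHTF2 had 11.9-fold and 9.56-fold. At STX10/IER2, a syntaxin gene and an immediate early gene with 36 bp between their TSSs, peaks of 8.88-fold and 10.25-fold lay 546 bp and 431 bp away from the shown stretch. These 5 pairs had the most significant weaker sides among the 164.

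Genes of 9 housekeeping and histone groups were compared between paired and single starts. Of all canonical protein-coding genes 9.46% were in divergent pairs, and the share was 34.7% of 98 DNA repair genes, 34.6% of 78 genes of the mitochondrial ribosome, 32.4% of 74 of the respiratory chain and 32.3% of 62 replication-dependent histones. It was lower for the proteasome (16.3% of 49) and the cytosolic ribosome (17.7% of 79). For comparison with the counts by group, 59.4% of all loci had a peak. A locus counted with a peak on either side or between the starts, so these counts include peaks inside partner genes outside the group.

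Cytosolic ribosomal protein genes had a peak at 13 of 14 loci, and 12 of their 14 paired genes had a downstream summit of their own (85.7%, 57.2 to 98.2), beside 45 of 61 single ones (73.8%, 60.9 to 84.2). RPL7/RDH10 reached 9.73-fold on the side of the retinol dehydrogenase gene RDH10, over a background of 1.88 fragments, while RPL7 had none, and RPL35/ARPC5L reached 11.3-fold on the RPL35 side. At MED22/RPL7A the RPL7A side had 10.8-fold and the MED22 side 5.94-fold. The locus without a peak was VPS52/RPS18. The paired and single shares had overlapping intervals in this list, as in the other 8.

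Respiratory chain genes had a peak at 19 of 24 loci (79.2%) and mitochondrial ribosome genes at 18 of 26 (69.2%), beside 59.4% of all loci. Both sides were bound at 6 of the respiratory chain loci, among them CCDC127/SDHA and LRRC41/UQCRH, the latter with 13.5-fold and 7.01-fold. NDUFB1/CPSF2 had 9.17-fold on the side of the polyadenylation factor gene CPSF2 only. AKAP3/NDUFA9 and HYCC2/NDUFB3 had no peak. The mitochondrial ribosome loci were led by YY1AP1/DAP3 with 10.8-fold on the YY1AP1 side. TCP1/MRPL18, a cytosolic chaperonin gene beside a mitochondrial ribosome gene, had 10.25-fold on the TCP1 side and 5.94-fold on the MRPL18 side. MRPL14/TMEM63B had 6.70-fold and 8.63-fold, and HELQ/MRPS18C and MRPL10/LRRC46 had no peak.

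DNA repair genes had a peak at 21 of 32 loci, and 11 of their 34 paired genes (32.4%, 17.4 to 50.5) had a downstream summit of their own, beside 27 of 63 single ones (42.9%, 30.5 to 56.0). At XPO5/POLH the nuclear export gene XPO5 had 13.5-fold and the translesion polymerase gene POLH 7.01-fold, at 443 and 977 bp. At CERT1/POLK the summit of 9.32-fold lay on the CERT1 side. AK6/RAD17 and CHEK2/HSCB had no peak. DNA replication genes had a peak at 9 of 13 loci, with 9.17-fold inside the helicase gene MCM7 at MCM7/AP4M1, 9.17-fold on the LRRC14 side of RECQL4/LRRC14 and 2 summits inside the origin recognition gene ORC6 at VPS35/ORC6. ORC4/MBD5 and POLE/PXMP2 had none.

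Histone pairs, with a histone gene on each side, had a peak at 8 of 10 loci, and 5 had both sides. H2AC15/H2BC15 had 2 summits on the H2AC15 side with 11 and 15 fragments and 1 on the H2BC15 side with 25, H2BC11/H2AC11 had 12 on one side and 19 and 24 on the other, and H2AC17/H2BC17 had 12 and 17. The farther summit at H2AC15 and at H2AC11 lay beyond the short transcript. Their local backgrounds ran from 1.03 to 1.63 fragments, all above the lowest value. H2AC1/H2BC1 and H2AC14/H2BC14 had no peak. Histone genes are near copies of each other, and reads that fit several places were removed before peak calling, per the names in the file header, so counts at these genes are uncertain.

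Chaperone genes had a peak at 12 of 16 loci, with HSPD1/HSPE1, DNAJC30/BUD23 (10.7-fold on the DNAJC30 side) and ATPSCKMT/CCT5 (7.13-fold and 7.75-fold over backgrounds up to 3.13 fragments) in the lead. The lens and muscle pair CRYAB/HSPB2 and DCDC1/DNAJC24 had none. Proteasome genes had a peak at 5 of 8 loci: after CEP76/PSMG2 came PSMA7/SS18L1 with 8.09-fold and 8.34-fold and PSME2/RNF31 with 6.48-fold and 5.94-fold. PSMD10/ATG4A and PSME4/ACYP2 had none. Aminoacyl-tRNA synthetase genes had a peak at 3 of 7 loci: KARS1/TERF2IP had 7.55-fold on the TERF2IP side, YARS1/S100PBP 5.77-fold and 6.22-fold, and HARS1/HARS2, whose partners encode the cytosolic and mitochondrial histidyl enzymes, 4.88-fold inside HARS2. EARS2/UBFD1 and LYRM4/FARS2 had none.

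The ETS core was more frequent at bidirectional promoters than at single ones. In the window from 250 bp before to 50 bp after the TSS, CCGGAA was found on either strand at 45.3% (43.1 to 47.6) of pair TSSs, 19.9% of single promoters and 22.8% of all. Among pair TSSs it was at 46.5% (42.7 to 50.2) with a downstream summit and 44.7% (41.8 to 47.6) without. At single promoters it was at 32.0% with and 16.4% without. These contrasts are not alike: paired starts lay a median of 234 bp apart, so the windows of most pairs share bases. A pair with summits on 1 side puts them in both groups, and the pair intervals count them for both genes. Counted once per pair, between the starts, CCGGAA was at 45.6% (41.5 to 49.8) of bound and 40.3% (35.4 to 45.4) of unbound pairs, with overlapping intervals. In the highest CpG class CCGGAA was at 44.7% of pair TSSs and 29.8% of single promoters. TATAAA showed the opposite order, at 3.79% of pair TSSs and 10.5% of single promoters. In the highest CpG class these shares were 3.12% (2.01 to 4.61) and 4.37% (3.76 to 5.06), with overlapping intervals.

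Only 2 of the 9 motifs differed between pair TSSs with and without a downstream summit beyond their intervals, in windows that also differed in CpG content. Because the windows of most pairs share bases, these groups are not independent, and a motif that did not differ may have been diluted. All intervals given for pair TSSs count shared bases for both genes and are too narrow. GGGCGG was at 78.5% (75.3 to 81.4) with a summit and 71.0% (68.3 to 73.6) without, and TCTCGCGA at 5.67% (4.08 to 7.64) and 2.82% (1.95 to 3.94). Between the starts GGGCGG was at 72.0% of bound and 69.1% of unbound pairs, and TCTCGCGA at 5.42% and 2.04%, with overlapping intervals. At single promoters the same motifs were at 79.6% against 54.5% and 3.27% against 0.960%. Shares over all promoters were 61.5% and 1.73%. The NF-Y motif was at 40.8% of pair TSSs and 35.98% of all promoters, the NRF1 motif at 7.36% and 4.25%, the YY1 motif at 6.24% and 2.86%, the CREB motif at 4.48% and 2.68%, and the E-box at 11.1% and 8.75%. In the highest CpG class, intervals of pair TSSs and single promoters overlapped for NRF1 (8.84% and 7.71%), YY1 (6.76% and 4.425%) and the E-box (12.7% and 11.2%). NF-Y (40.6% and 31.55%), CREB (7.28% and 4.17%) and TCTCGCGA (5.98% and 3.34%) were higher at pairs beyond their intervals. GGGCGG was lower at pairs there (75.3% and 82.8%).

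Chromosomes differed in the share of bound pairs. The X chromosome had 4 of 26 (15.4%, 4.36 to 34.9), chromosome 14 had 17 of 45 (37.8%, 23.8 to 53.5), chromosome 6 had 23 of 56 (41.1%, 28.1 to 55.0) and chromosome 19 had 30 of 70 (42.9%, 31.1 to 55.3). All 7 pairs of chromosome 21 and 61 of 84 on chromosome 1 (72.6%, 61.8 to 81.8) had a peak. Single promoters were also bound least on the X chromosome, at 9.69% (7.68 to 12.01).

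At the limits of the rule the values were ordinary. The summits just inside 1000 bp were 990 bp out at AP4B1/DCLRE1B with 5.81-fold and 977 bp out at XPO5/POLH with 7.01-fold, and those just outside were 1002 bp out at CLCN2/POLR2H with 4.86-fold and 1017 bp out at CCT3/TSACC with 7.30-fold. The widest bound pair was HNRNPA2B1/CBX3 with 999 bp between the TSSs and 3 summits of up to 7.10-fold, and the closest was MRM2/NUDT1 with 21 bp and 7.55-fold on the MRM2 side. ATP6V1G2/NFKBIL1, at 1000 bp, had no peak, and ABHD14B with the read-through transcript of ABHD14A or with ABHD14A, at 1011 and 1015 bp, had 10.25-fold just outside the rule.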

How the data were processed

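DNA bound by ING5 was profiled by ChIP-seq in HepG2 cells, with 1 ChIP and 1 input library. Per the file headers, the authors called peaks with MACS 2.1.1.20160309 from read pairs, keeping p below 1e-05, on 12416160 ChIP and 9915170 input fragments with a fragment size of 183 bp. The submitters' processing notes name fastp 0.19.6, Bowtie2 and deepTools. The deposited pileup is a coverage signal, which is whole in every row although the headers announce scaling. The deposited fold enrichment is a ratio of pileup to local background, with a pseudocount of 1 on both. The deposited significance is −log10 p, by which peaks were ranked. Depth limits weak peaks: the median peak held 12 fragments.

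GRCh38 positions of TSSs came from the original exon locations recorded in the GENCODE 44 annotation. The local background was recovered from pileup and fold with a pseudocount of 1. CpG and motifs were taken in promoter windows of the GRCh37 genome, matched through gene identifiers (19818 of 19819), while printed sequences came from RefSeq windows of GRCh38.p14. Summits were placed with Python 3.11.15, pandas 2.3.3 and scipy 1.17.1, and the placement was tested on simulated positions. No p-values were computed. The pairs, lists and measures were chosen with earlier results of these data known.

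Pairs were named by rule: the 12 with the most significant peak, the 5 with the most significant weaker side, the 5 most significant with a summit between the starts, the 3 widest peaks over both starts, up to 3 bound and 2 unbound pairs per list, and the limits of gap and window. 1 pair named by this rule is not reported here. GLYR1/UBN1 was chosen after its values were seen. Alternatives changed the peak threshold, background, window, overlap, gap, TSS set, chromosomes and CpG. Peaks outside chromosomes 1 to 22 and X (19) were left out.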

Additional observations from a re-analysis of the deposited data

How the results depend on the processing

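No paired analysis was possible because each group held 1 library, and no replicate could be left out. Of 65 values under alternatives, 34 lay inside the interval of the reported value and 31 outside it. The shares of bound pairs (reported 59.2%), pair TSSs with a downstream summit (37.7%), single-promoter TSSs with one (22.3%) and bound pairs with both sides (28.5%) were, in this order, 37.5%, 21.8%, 13.9% and 18.4% after keeping the upper part of the peaks, split evenly by significance, 7.503%, 3.95%, 3.38% and 2.74% with the 1000 most significant, 35.8%, 21.4%, 13.6% and 21.6% with peaks at the lowest local background, and 49.9%, 29.5%, 14.4% and 20.8% with a window of 500 bp. Those settings keep fewer peaks or summits, so lower shares follow by construction. At this depth a side without a peak may be one below the threshold. With any overlap the last 3 shares were 40.3%, 23.8% and 35.3%, with any annotated TSS 42.5%, 25.2% and 38.3%, and in the upper part by CpG the first 3 were 65.1%, 42.3% and 36.3%. Pair TSSs stood 1.16 times as high as single promoters in the upper part by CpG, against 1.69 as reported. With the 1000 most significant peaks they stood 1.17 times as high, and in that setting the intervals overlapped. Summits outside the stretch between the starts (98.2%) made up 100%, 99.6% and 96.8% with the 1000 most significant peaks, gaps of at most 300 bp and overlapping heads included. Where heads overlap, the stretch between the starts lies inside both genes, so the 96.8% is not a like measure. The median enrichment of 6.501 was 7.58, 10.8 and 7.01 with the more significant part, the 1000 most significant and the lowest background, which keep stronger peaks. Counting 1 pair per locus or leaving out chromosome 5 alone were chosen after seeing the data, and neither took a value outside the interval of the reported one. Of 46 named bound pairs, 29 kept a peak among the 1000 most significant and 29 at the lowest background.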
